A study of Mus musculus with 6 samples.

Results

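The subunits of the NMDA receptor, a glutamate-gated cation channel of excitatory synapses, were examined in mouse cerebellum with normal or reduced Sp4. All 7 subunit genes of the family were taken (Grin1, Grin2a, Grin2b, Grin2c, Grin2d, Grin3a and Grin3b), with every probe that the platform annotation gave to them, whether or not it was above background. This gave 9 probes for 6 of the 7 genes, of 45281 probes for 19057 named genes on the array. No probe was assigned to Grin1 in the annotation used here, so its level was not analysed here. Total RNA of 3 wild-type males (genotype WT) and 3 hypomorph males (genotype Sp4neo-/-), all of the strain Black Swiss X CD1 and at postnatal day 21, was hybridised to Illumina bead arrays, with 1 array for each animal. A hypomorph keeps part of a gene's activity, and Sp4 is a zinc-finger transcription factor of neurons that binds GC-rich promoter elements. The design describes littermate pairs, but the labels do not say whether the arrays numbered 1 to 3 in each group are those pairs, nor how the allele was made.

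NMDA receptors are assembled from obligatory GluN1 subunits (Grin1), which bind the co-agonists glycine or D-serine, with GluN2 subunits (Grin2a to Grin2d), which bind glutamate and set the kinetics and magnesium block of the channel. GluN3 subunits (Grin3a and Grin3b) bind glycine and give channels that pass less calcium. In the rodent cerebellum, maturing granule cells are known to exchange Grin2b for Grin2a and Grin2c during the first postnatal weeks, while Grin2d is known from early development and from a few classes of neuron. The comparison here asks whether subunit transcripts differ when Sp4 is reduced.

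Levels are given as log2 intensity after background correction and quantile normalization, and differences as hypomorph minus wild type on that scale. Between 18656 and 20135 probes were above background on an array (detection p-value under 0.05), and the 19515 probes above background on at least 3 of 6 arrays were tested. A probe was called when its adjusted p-value in limma was under 0.05. The number of arrays limits the precision. In whole cerebellum, fewer cells of a type and less RNA per cell cannot be told apart. Sp4 itself had lower readings in the 3 hypomorphs than in the 3 wild types on both of its probes. Probe ILMN_1259753 read 7.82, 6.86 and 7.35 in wild type 1 to 3 and 5.99, 5.80 and 6.32 in hypomorph 1 to 3. Probe ILMN_1253376 read 6.36, 5.77 and 6.64 in wild type and was not well above background in any hypomorph, where it was lower by at least 1.50-fold. Neither Sp4 probe was called, with adjusted p = 0.355 and adjusted p = 0.354 in limma. Probe ILMN_1253376 passed the filter through the wild types only, so its lower hypomorph values were partly fixed by the filter. The tissue label was checked against cell type markers. Gabra6 and Neurod1 of granule cells and Pcp2 of Purkinje cells were above background on all 6 arrays, and of the 8 forebrain and hippocampal genes 1 (Prox1) was tested and 5 (Emx1, Emx2, Neurod6, Lhx2 and Ddn) were not above background on any array. Of 12 midbrain, pons and medulla genes 5 were tested, and Otx2, Th and Tph2 were above background on all 6 arrays, while Hoxb2, Hoxa5, Hoxb4 and Slc6a4 were so on none. Of 5 choroid plexus genes, Ttr and Clic6 were above background on all 6 arrays and Kl, Folr1 and Kcne2 on none. Ttr, the thyroid hormone carrier of choroid plexus, read 11.04, 8.31 and 10.05 in wild type 1 to 3 and 9.47, 10.10 and 9.45 in hypomorph 1 to 3, so it varied most within wild type. The log2 summed intensity of Ttr and Clic6 lay between 9.39 and 11.28 in wild type and between 10.06 and 10.87 in the hypomorph. That of the 5 midbrain, pons and medulla genes lay between 9.70 and 10.27 and between 9.85 and 10.24. This second sum is mainly the level of Otx2 (9.16 to 9.95), since Hoxb3, Hoxb5, Th and Tph2 read only 5.22 to 6.59. It therefore gives no level of such tissue. The part of neighbouring tissue in the subunit values was not tested. Probes of other defining cerebellar genes were not above background on any array, among them Calb1, Pcp4 and Car8 of Purkinje cells and Cbln3 and Pax6 of granule cells, so a probe that is not above background does not show that its transcript is missing.

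Of the 9 subunit probes, 5 were above background on all 6 arrays, 1 each for Grin2a, Grin2b, Grin2c, Grin3a and Grin3b, and these were tested. The other 4 were not above background on any array of either genotype: the second probe of Grin2a, 2 further probes of Grin2b and the only probe of Grin2d. No subunit probe was called, 0 of 5, and 0% of all 19515 tested probes were called either. The wild-type and hypomorph values overlapped on each of the 5 tested probes, whereas they did not overlap on 10.5% of all tested probes. The differences ran from -0.16 for Grin2b to 0.11 for Grin2c. Levels of different probes depend on the probe as well as on the transcript, so the subunits are not ranked by level.

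**Figure D1:**
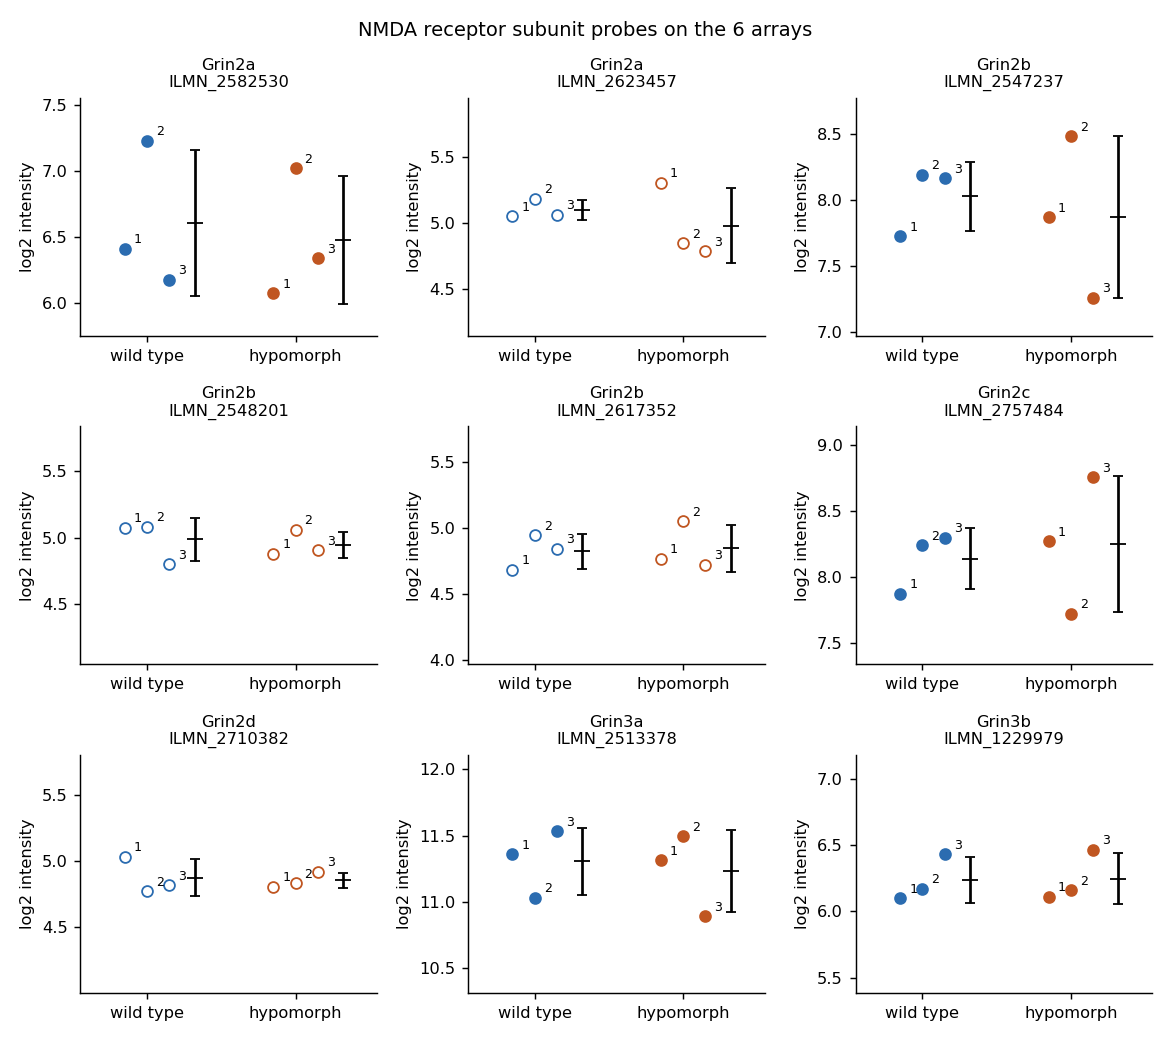
Log2 intensity of the 9 NMDA receptor subunit probes (vertical axes span equal ranges at different levels) in 3 wild-type (blue) and 3 hypomorph (orange) animals, numbered as in the labels, with the group mean and SD in black. Filled points are above background and open points are not; values of the groups overlap in every panel of a tested probe, and Grin2b and Grin2c are more scattered in the hypomorph.

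Grin2a encodes the GluN2 subunit that speeds the decay of synaptic currents in mature neurons. Its probe ILMN_2582530, annotated to a cDNA record, read 6.41, 7.23 and 6.18 in wild type 1 to 3 and 6.08, 7.02 and 6.34 in hypomorph 1 to 3. The arrays numbered 2 were the high ones in both genotypes, and the groups overlapped over nearly their whole range. Wild type averaged 6.61 ± 0.55 (SD, n = 3) and the hypomorph 6.48 ± 0.49 (SD, n = 3), a difference of -0.13 (SE 0.33, 95% interval -0.91 to 0.66, limma adjusted p = 0.999). The interval allows levels up to 1.88-fold lower or 1.58-fold higher in the hypomorph. The sign turned to 0.18 without wild type 2, to 0.074 without hypomorph 1 and to 0.041 with arrays weighted by quality; without hypomorph 2 the difference was -0.40, without wild type 3 it was -0.34, without wild type 1 it was -0.22 and without hypomorph 3 it was -0.058. In the deposited intensities before normalization the arrays numbered 2 were also the highest of each group, with 64.9, 152.0 and 56.5 in wild type and 49.4, 113.3 and 65.1 in the hypomorph. Detection p-values of this probe reached 0.0192, in hypomorph 1, so its lower readings were close to background. The other Grin2a probe, ILMN_2623457, annotated to the RefSeq transcript, lay between 4.78 and 5.30 on the 6 arrays, with detection p-values between 0.158 and 0.638.

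Grin2b encodes the subunit that dominates in young forebrain and in immature granule cells. Probe ILMN_2547237 read 7.72, 8.19 and 8.16 in wild type 1 to 3 and 7.87, 8.48 and 7.26 in hypomorph 1 to 3. The highest and the lowest of the 6 values were both hypomorphs, so the wild-type values lay inside the hypomorph range. Wild type averaged 8.03 ± 0.26 (SD, n = 3) and the hypomorph 7.87 ± 0.61 (SD, n = 3), a difference of -0.16 (SE 0.31, 95% interval -0.87 to 0.56, limma adjusted p = 0.999). The interval reaches from 1.83-fold lower to 1.48-fold higher. Without hypomorph 3 the difference turned to 0.15, without hypomorph 2 it was -0.46 and without wild type 1 it was -0.31, and with weighted arrays it was -0.47 (adjusted p = 0.535); without wild type 2 and wild type 3 it was -0.074 and -0.087. Probes ILMN_2548201 and ILMN_2617352 were not above background on any array, with detection p-values from 0.237 to 0.640 and from 0.260 to 0.875.

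Grin2c encodes the subunit of mature cerebellar granule cells, with weak magnesium block and slow decay. Its single probe, ILMN_2757484, read 7.87, 8.24 and 8.30 in wild type 1 to 3 and 8.27, 7.72 and 8.76 in hypomorph 1 to 3. As for Grin2b, a hypomorph was the highest and a hypomorph the lowest of the 6, with hypomorph 3 high and hypomorph 2 low. Wild type averaged 8.14 ± 0.23 (SD, n = 3) and the hypomorph 8.25 ± 0.52 (SD, n = 3), a difference of 0.11 (SE 0.27, 95% interval -0.52 to 0.74, limma adjusted p = 0.999), which allows up to 1.43-fold lower and 1.67-fold higher levels. Leaving out hypomorph 3 turned the difference to -0.14, and leaving out wild type 1 to -0.020. The difference was 0.37 without hypomorph 2, 0.19 without wild type 3 and 0.26 with weighted arrays. Grin2d, the subunit with the slowest decay, was read by probe ILMN_2710382, which lay between 4.77 and 5.03 with detection p-values from 0.303 to 0.684, so no difference can be given for it.

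The 250 bases before the annotated start of Grin2c are shown because Sp4 binds GC-rich elements and Grin2c held the most copies of a GC box among the subunit promoters at hand. RefSeq sequence of assembly GRCm38.p6, chr11:115267244-115267493 on the minus strand, is printed 5′ to 3′ with each match to GGGCGG in capitals. The annotated extent of the gene also reaches past this start, since RefSeq lists several transcripts.
Grin2c: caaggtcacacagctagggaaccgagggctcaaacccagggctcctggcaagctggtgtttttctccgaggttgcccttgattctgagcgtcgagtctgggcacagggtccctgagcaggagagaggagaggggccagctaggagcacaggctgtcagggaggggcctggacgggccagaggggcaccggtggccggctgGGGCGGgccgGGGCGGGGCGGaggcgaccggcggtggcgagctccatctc
The matches begin 50, 40 and 35 bases before the start, and the last 2 share a base. Promoter windows of 300 bases (250 before and 50 after the start) were found for 4 of the 7 subunit genes. The letters GGGCGG, on either strand, occurred 3 times for Grin2c and 1 time for Grin1, and they were not found in the windows of Grin2d and Grin3b. Of all 32851 windows, 35.7% held the letters at least once and 10.7% held them 3 times or more, so such a match is common. The GC content was 70.0% for Grin2c, 60.7% for Grin1, 56.0% for Grin2d and 48.3% for Grin3b, beside a median of 52.7% over all windows.

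Grin3a encodes a GluN3 subunit that is abundant in juvenile brain and restrains synapse maturation. Probe ILMN_2513378, for which the annotation lists no transcript record, read 11.36, 11.03 and 11.53 in wild type 1 to 3 and 11.31, 11.50 and 10.89 in hypomorph 1 to 3. Wild type 3 and hypomorph 2 were nearly equal at the top, and wild type 2 and hypomorph 3 were the low animals. Wild type averaged 11.31 ± 0.25 (SD, n = 3) and the hypomorph 11.23 ± 0.31 (SD, n = 3), a difference of -0.074 (SE 0.21, 95% interval -0.56 to 0.41, limma adjusted p = 0.999), so that levels up to 1.48-fold lower or 1.33-fold higher are allowed. Leaving out hypomorph 3 turned the difference to 0.098, and leaving out wild type 3 to 0.038. Without wild type 2 the difference was -0.21, without hypomorph 2 it was -0.21, without hypomorph 1 it was -0.11, without wild type 1 it was -0.048, and with weighted arrays it was -0.35 (adjusted p = 0.495). Oligodendrocyte precursors, which carry Grin3a in other brain tissue, had lower values for 7 of 7 markers, of which 0 were called, with a median of -0.23. This was not particular to precursors. Lower values were also found for 9 of 10 oligodendrocyte markers (median -0.20) and 10 of 11 Bergmann glia and astrocyte markers (median -0.046). Of all 10764 tested genes, 5591 had lower values. Sox10 was in both the precursor and the oligodendrocyte list. The log2 of the summed intensity of the precursor markers lay between 13.84 and 14.48 in wild type and between 13.72 and 14.14 in the hypomorph. Bcas1, the brightest of them at 12.98 to 13.85, made up most of this sum. All 7 precursor markers had a tested probe, and the part of these cells in the Grin3a values was not tested.

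Grin3b encodes the GluN3 subunit best known from motor neurons. Probe ILMN_1229979 was close to background, with detection p-values between 0.00427 and 0.0214, and read 6.10, 6.17 and 6.43 in wild type 1 to 3 and 6.11, 6.16 and 6.47 in hypomorph 1 to 3. Same-numbered animals differed by at most 0.034, and the arrays numbered 3 were the highest in both genotypes. Wild type averaged 6.24 ± 0.17 (SD, n = 3) and the hypomorph 6.25 ± 0.19 (SD, n = 3), a difference of 0.010 (SE 0.16, 95% interval -0.37 to 0.39, limma adjusted p = 0.999), or at most 1.29-fold lower and 1.31-fold higher. This was the narrowest interval of the 5 subunits, although the offset used in the log2 transform makes folds of dim probes smaller. The sign of so small a value turned to -0.057, -0.021 and -0.10 without wild type 1, wild type 2 and hypomorph 3 and to -0.013 with weighted arrays, and the value was 0.11 without wild type 3, 0.077 without hypomorph 1, 0.053 without hypomorph 2 and 0.087 with median scaling.

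**Figure D2:**
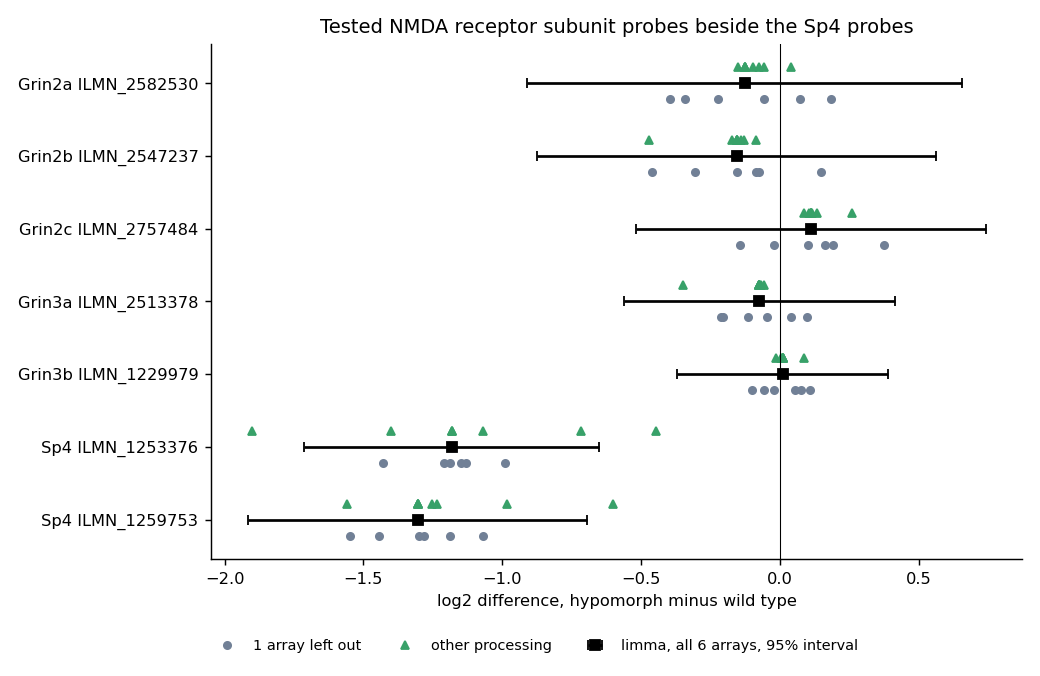
Log2 difference (hypomorph minus wild type) of the 5 tested NMDA receptor subunit probes and of both Sp4 probes; squares and bars are limma estimates with 95% intervals, circles leave out 1 of the 6 arrays and triangles are other processings. The intervals of all 5 subunit probes include 0, while those of the Sp4 probes lie below 0; probe ILMN_1253376 was not above background in the hypomorph, so its fitted value is not a measured size.

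With the processed values deposited by the authors, differences kept their signs and were -0.058 for Grin2a, -0.087 for Grin2b, 0.088 for Grin2c, -0.070 for Grin3a and 0.0041 for Grin3b. For Sp4 probe ILMN_1259753 these values gave -0.60, against -1.30 (SE 0.26) by the neqc values and -0.98 with an offset of 50. Its detection p-values in hypomorph 1 to 3 were 0.0299, 0.0321 and 0.00855. The hypomorph readings were thus close to background, and the size of this difference depends on the processing. The interval of this Sp4 probe (-1.92 to -0.69) overlaps those of Grin2a and Grin2b, which were measured least precisely, and whether subunit and Sp4 differences differ was not tested.

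Spread between animals was wide for the GluN2 subunits. The SD within groups was 0.52 for Grin2a, 0.47 for Grin2b and 0.40 for Grin2c, beside a median of 0.23 over all tested probes, and 6.40%, 9.37% and 15.5% of tested probes had a larger one. It was 0.28 for Grin3a and 0.18 for Grin3b. In the hypomorph the SD of Grin2b was 2.33 times and that of Grin2c 2.25 times the SD in wild type, ratios reached by 13.4% and 14.3% of tested probes, and this difference in spread was not tested. Grin2a, Grin3a and Grin3b had ratios of 0.883, 1.23 and 1.10. The outlying values of Grin2b and Grin2c lay in hypomorph 2 and hypomorph 3 and in opposite directions. Wild type 1, in contrast, was the lowest wild type for both (7.72 and 7.87). Over the 6 arrays Pearson's correlation was -0.69 for Grin2b with Grin2c. It was -0.71 for Grin2c with Grin3a and 0.73 for Grin2c with Grin3b, so Grin2b and Grin2c were not singled out. Hypomorph 3 had the lowest Grin2b (7.26), the lowest Grin3a (10.89) and the highest Grin2c (8.76) of all 6 animals, whereas hypomorph 2 had the highest Grin2b (8.48) and the lowest Grin2c (7.72). Beside these values, the log2 summed intensity of the 12 tested of 14 granule cell markers was 16.95 in hypomorph 2 and 16.89 in hypomorph 3, with a range of 16.59 to 16.95 over the hypomorphs and of 16.56 to 17.02 in wild type. That of the 5 tested of 10 granule cell progenitor markers was 11.65 and 11.61 in these animals, with a range of 11.41 to 11.65 over the hypomorphs and of 11.39 to 11.61 in wild type. Ccnd1, the brightest of the progenitor markers at 10.72 to 11.01, made up most of this second sum. Of the other progenitor markers, Atoh1, Mycn and Gli1 were not above background on any array, Top2a was not tested and Mki67 had no probe. The part of cell composition in the scatter was not tested.

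**Figure D3:**
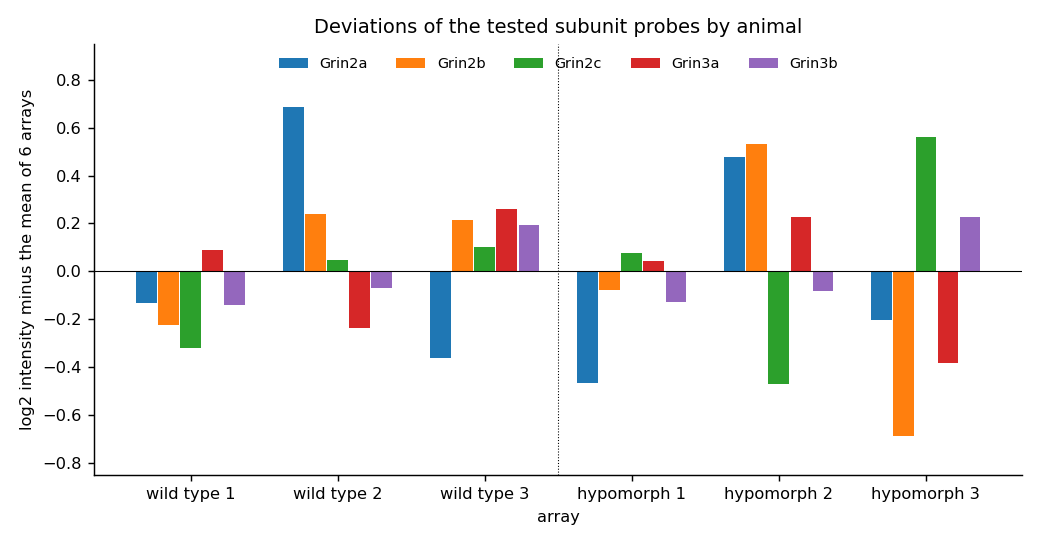
Deviation of each tested subunit probe from its mean over the 6 arrays (log2 intensity, bars from 0) for 3 wild-type and 3 hypomorph animals. Grin2b and Grin2c point in opposite directions in hypomorph 2 and hypomorph 3, and Grin2a is raised on both arrays numbered 2.

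The genes whose level over the 6 arrays was most like that of a subunit were listed among 10466 genes by Pearson's correlation, as a description of 6 arrays that share their normalization. For Grin2a they were Xrn1, an exoribonuclease, with r = 0.996, and the RNA helicases Ddx47 (0.993) and Ddx51 (0.986), and without both arrays numbered 2 these values became 0.961, 0.923 and 0.799. For Grin2b they were Zfp523, a zinc-finger protein, with r = 0.962, the elongation factor gene Eef1g (0.960) and the ribosome export factor gene Nmd3 (0.955), and they became 0.839, 0.886 and 0.885 without hypomorph 2 and hypomorph 3. For Grin2c they were Trmt112, a methyltransferase partner, with r = 0.997, Rgs9bp, an anchor of a G protein regulator (0.974), and Rbbp6, a ubiquitin ligase (0.971), and they became 0.997, 0.964 and 0.941 without the same animals. For Grin3a they were the alpha-actinin gene Actn1 (r = 0.983), the transcription factor gene Bcl11b (0.981) and Ccdc137 (0.974), and they became 0.902, 0.843 and 0.787 without wild type 2 and hypomorph 3. For Grin3b they were the cortactin gene Cttn (r = 0.992), Zfp994 (0.976) and Tspyl5 (0.973), and they became 0.690, -0.19 and 0.996 without the arrays numbered 3, so that the likeness of Zfp994 rests on those arrays. Of the 10466 genes, 37 reached 0.95 with Grin2a, 4 with Grin2b, 16 with Grin2c, 14 with Grin3a and 8 with Grin3b. How many would do so by chance was not tested. The named genes were picked as the highest over these same arrays, so their values with arrays left out are no separate check.

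Genes that act with the receptor were described from a list of 96 genes in 7 roles, of which 76 had a tested probe, 6 had no probe and 14 had probes that were not tested. Each gene was read by its brightest tested probe. None of the 76 was called, 40 had higher and 36 lower values in the hypomorph, and the median difference was 0.00051, beside -0.0086 over all 10764 tested genes. In 62 of 76 genes (81.6%) the difference lay within 0.2, compared with 69.4% of all tested genes. The groups did not overlap for 5 genes, or 6.58%, beside 11% of all tested genes. These were Shank1, Dao and the calmodulin gene Calm3 (0.12, SE 0.12) with higher values, and Camk2g and the phosphatase gene Ppp2ca (-0.053, SE 0.12) with lower values. An unadjusted p-value under 0.05 was found for 1 gene higher (Shank1) and 1 lower (Camk2g), beside 2.23% of all tested genes higher and 3% lower. Shank1 was tested only because it was above background in the hypomorphs, so its place in both counts was partly fixed by the filter. The list was not set against other lists by a test.

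Among genes of co-agonist supply and clearance, 7 of 13 had higher values, with a median of 0.014. Dao, the oxidase that degrades D-serine and is known from hindbrain astrocytes, read 10.67, 10.67 and 10.54 in wild type 1 to 3 and 10.92, 10.76 and 10.75 in hypomorph 1 to 3. The 3 hypomorphs lay above the 3 wild types without overlap, and the difference was 0.19 (SE 0.13, limma adjusted p = 0.999), or 0.24 on a second probe. Slc7a10, a glial and neuronal transporter of D-serine and glycine, differed by -0.32 (SE 0.22), changing to -0.091 without hypomorph 2 and -0.49 without hypomorph 1. Among genes of glutamate supply and uptake, 2 of 7 had higher values, with a median of -0.025. Glul, glutamine synthetase of glia, differed by 0.40 (SE 0.38), with a range of 0.15 (without hypomorph 3) to 0.83 (without hypomorph 2). Its only probe was dim, at 5.97 to 7.34 over the 6 arrays. Slc1a6, the Purkinje cell glutamate transporter, differed by -0.19 (SE 0.14), moving to -0.29 when hypomorph 3 was left out. The processed values of the authors gave 0.20 for Glul, and weighted arrays gave -0.094 for Slc1a6.

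Among scaffold genes, Shank1, a postsynaptic scaffold, read 5.83, 5.74 and 6.17 in hypomorph 1 to 3, where it was above background on 3 of 3 arrays, and it was not well above background in any wild type, where it read 5.32, 5.21 and 5.08. The hypomorphs all lay above the wild types, by at least 1.15-fold against the lowest signal above background (limma adjusted p = 0.432). Shank1 passed the filter of at least 3 arrays through the hypomorphs only. Its higher values there were thus partly fixed by the filter and are no separate support for a difference. Its fitted difference, which is not a measured size, was 0.71, moved to 1.36 without background correction and to 0.26 with the processed values of the authors, and the second probe of Shank1 was not tested. Of the 11 scaffold genes tested 6 had higher values, with a median of 0.00020. Dlg4, which encodes the scaffold PSD-95, differed by 0.043 (SE 0.17), and Shank3, another Shank scaffold, by -0.15 (SE 0.20) and by -0.11 on its other probe. The sign of Shank3 turned to 0.047 without wild type 2 and to 0.014 with weighted arrays, and its value was -0.26 without wild type 3. Among trafficking genes 3 of 9 had higher values, with a median of -0.044. Lin7c, of the complex that carries NMDA receptors along dendrites, differed by -0.40 (SE 0.31), which became -0.73 without hypomorph 3, -0.13 without hypomorph 2, -0.22 with weighted arrays and -0.18 with the processed values of the authors. The only probe of Lin7c was dim, at 6.18 to 7.37 over the arrays. Gipc1, an adaptor of receptor transport, differed by 0.40 (SE 0.34), which became 0.69 without wild type 1, 0.060 without wild type 2 and 0.21 without hypomorph 1, and its other 3 probes by -0.029 to 0.062.

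Of 18 kinase and phosphatase genes 8 had higher values, with a median of -0.013. Camk2g, a subunit of the calcium and calmodulin-dependent kinase that docks on GluN2B, read 10.97, 10.69 and 10.78 in wild type 1 to 3 and 10.69, 10.16 and 10.33 in hypomorph 1 to 3. The groups touched without overlapping, since wild type 2 and hypomorph 1 were nearly equal, and the difference was -0.42 (SE 0.18, limma adjusted p = 0.923). Its 3 other probes ran from -0.39 to 0.17, so the probes of this gene disagree. Camk2a, the subunit most abundant in forebrain, differed by -0.021 (SE 0.13) and by 0.13 on its other tested probe, and Csnk2a1, a kinase that phosphorylates GluN2B, by 0.26 (SE 0.16), by 0.046 to 0.070 on its other probes and by 0.14 when hypomorph 2 was left out. In calcium signalling behind the receptor 6 of 9 genes had higher values, with a median of 0.069. Nos1, the neuronal nitric oxide synthase, differed by 0.10 (SE 0.16) and by 0.25 on its other probe. Creb1, a transcription factor of activity-driven expression, differed by 0.25 (SE 0.16) on the 1 tested of its 6 probes, and by 0.14 when wild type 1 was left out. Kalrn, a protein of dendritic spines, differed by -0.24 (SE 0.21) on the 1 tested of its 5 probes. This became -0.10 without hypomorph 3, -0.46 without hypomorph 1 and -0.40 with weighted arrays. Among regulators 8 of 9 had higher values, with a median of 0.074 and no call. Mef2c, a transcription factor of neuronal activity, differed by 0.20 (SE 0.16) and by 0.21 on its other tested probe, and the first value became 0.071 without wild type 2 and 0.070 with weighted arrays. Ntrk2, the receptor of brain-derived neurotrophic factor, differed by -0.15 (SE 0.14), by -0.079 when wild type 1 was left out and by 0.051 on its other tested probe. Grina, named for its association with NMDA receptors, differed by 0.051 (SE 0.12).

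**Figure D4:**
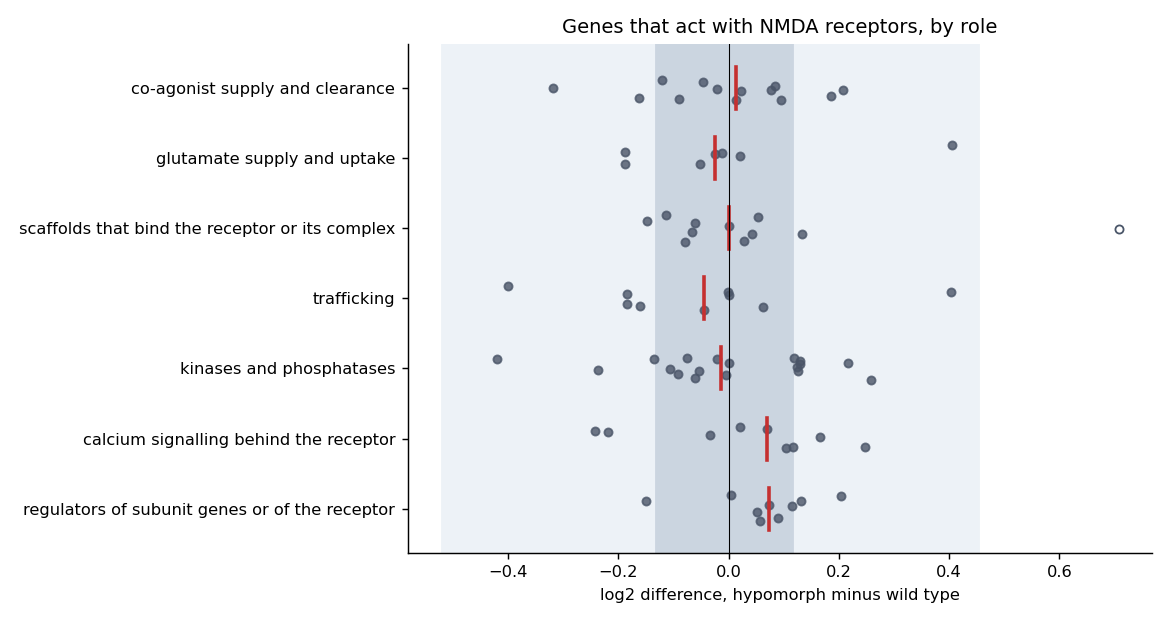
Log2 difference (hypomorph minus wild type) of 76 genes that act with NMDA receptors, by role, with each role's median in red; the open point (Shank1) was not above background in wild type. Dark and light grey mark the range between quartiles and the central 95% of all 10764 tested genes, and 62 of the 76 genes lie within 0.2 of 0.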

How the data were processed

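Illumina bead arrays measured cerebellar RNA of 6 mice. Per the submitters' processing notes BeadStudio was used; its version and background method were not given in the sources. The authors deposited, per the file headers, linear intensity values that were not normalized, already background-subtracted (values reach -42.8), with a detection p-value per probe and array. The processed intensity values that the authors deposited have medians of 161.3 to 161.5 and ranks equal to those of the first table (rank correlation 1), so they appear quantile-normalized and shifted, which no header states.

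Values were corrected, quantile-normalized and put on a log2 scale by neqc of limma 3.58.1 (R 4.3.3; offset of 16, background from the deposited detection p-values). Normalization hides a shift shared by most transcripts. Probes with a detection p-value under 0.05 on at least 3 arrays were fitted in limma (lmFit, eBayes) without a block, with Benjamini-Hochberg adjustment over 19515 probes. The fit was tested on simulated data with noise drawn independently for each probe and array, so deviations shared between probes or arrays were not simulated. What size of difference these arrays can detect was not read from it. With 3 against 3 arrays the smallest exact two-sided permutation p-value is 0.1. Of all probes, 34885 had 1 gene symbol in the platform annotation, 18 several and 10378 none. A fold against a group not above background is a bound, taken on each array against the lowest signal above background, or against the dim probe's reading where that was higher; it holds for this normalization only.

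The numbers were not taken as pairs because the labels do not say that they mark them. The same-numbered arrays of both groups deviated from their group means with correlations of 0.437, 0.400 and 0.0621. Arrays of unlike number did so with correlations of -0.439 to 0.0434. The members and lists were chosen with earlier results of these data known. Named are each subunit and Sp4 probe, the list gene with the smallest p-value per direction and role, and the 3 genes most like each subunit (Riken and predicted genes left out). Dlg4, Camk2a, Nos1, Grina, Calm3 and Ppp2ca were named after their values were seen. Tried as alternatives were a replicate block, leaving out the background correction (floor of 16), an offset of 50, median scaling, the processed values, 3 other filters, weights per array, robust moderation together with a variance trend, omission of each array and the mean over probes.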

Additional observations from a re-analysis of the deposited data

How the results depend on the processing

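No alternative brought a subunit probe or a gene of the list of 76 past the threshold. Over all tested probes the number past it, 0 by the reported fit (1036 at an unadjusted p-value under 0.05), was 2 with a replicate block, 5 with an offset of 50, 8 with the processed values, 3 for probes above background on all 6 arrays, 8 with a variance trend and robust moderation together, 13 with array weights, and 0 to 2 with 1 array left out. The labels do not say that the numbers mark pairs. Each array deviated most like the one of its own number, a hint from the data only. For number 3 the margin was slight, at 0.0621 against 0.0434 for wild type 3 with hypomorph 1. Deviations from a group mean balance out within the group, so these correlations are not independent. The replicate block cannot change a difference, since each number has 1 array per group, and only the precision can move. With it the difference of Grin2a, -0.13, had an adjusted p = 0.844 in limma, and no subunit call changed. The list median moved to 0.061 with median scaling, where the median of all tested probes was 0.035. Array weights reversed Grin2a (0.041), Grin3b (-0.013) and Shank3 (0.014). With 1 array left out, differences ran from -0.40 to 0.18 for Grin2a, -0.46 to 0.15 for Grin2b, -0.14 to 0.37 for Grin2c, -0.21 to 0.098 for Grin3a, -0.10 to 0.11 for Grin3b and -0.26 to 0.047 for Shank3. The cause of these changes was not tested, and no slide is named, so slide was not run as a block. Signals near background limit Grin2a, Grin3b, Glul, Lin7c, Shank1, both Sp4 probes in the hypomorph and the 4 subunit probes that were not tested.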
